A study of Mus musculus with 5 samples.

Results

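The simple epithelial keratins of the bladder lining were followed as 5 genes, Krt7, Krt8, Krt18, Krt19 and Krt20, chosen by symbol from the 24970 genes counted. All 5 passed the filter on low counts, as did 14779 genes in all. RNA was sequenced from urothelium dissected off the bladder muscle of 3 Nicastrin knockout mice (KO 1 to KO 3) and 2 wild-type mice (WT 1 and WT 2), with 1 library per mouse. The knockouts had the genotype Krt5CreERT2;Ncstnflox/flox, in which a Cre recombinase fused to an oestrogen receptor domain is driven by the basal keratin gene Krt5 and cuts floxed alleles of Ncstn. The wild types were labelled as strain C57Bl/6, and the labels give no strain background for the knockouts. All 5 mice were 10 weeks old, and the induction of the Cre is not described in the labels. Loss of Ncstn therefore cannot be told apart from the Cre, its induction or the strain background. Cre driven by Krt5 acts in basal cells, so umbrella and intermediate cells would lose the gene only as descendants of basal cells.

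Keratins are intermediate filament proteins of epithelial cells, and each filament is built from pairs of an acidic type I and a basic type II chain. Krt8 (type II) and Krt18 (type I) form the filaments of simple epithelia and are the first keratins of the embryo, Krt7 is a type II keratin of ducts and urothelium, and Krt19 is a small type I keratin that lacks most of the tail domain. Krt20 is a type I keratin restricted in the bladder mainly to umbrella cells, the large superficial cells whose apical membrane carries uroplakin plaques. Nicastrin belongs to the gamma-secretase complex, which cuts Notch receptors in the membrane and so frees their signalling domain. The comparison asks how these keratins stand in urothelium of mice whose genotype targets Ncstn in basal cells and their progeny. Whether Notch cleavage was lost was not measured.

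Krt8 and Krt18 are neighbours although they belong to different keratin types. Krt18 lies among the type II genes on chromosome 15, from 102028180 to 102032027 on the plus strand (GRCm38, 7 exons), and Krt8 lies from 101996698 to 102004482 on the minus strand with 9 exons. Their annotated RefSeq starts were 23.9 kb apart and pointed away from each other. Krt7 is on the same chromosome from 101411043 to 101430313 (plus strand, 9 exons). Krt19 (100140810 to 100148665, 6 exons) and Krt20 (99428403 to 99438150, 8 exons) lie on the minus strand of chromosome 11, in the cluster of type I genes. RefSeq promoter windows of GRCm38.p6, from 250 bases before to 50 bases after the annotated start, were matched for 4 of the 5 genes, all but Krt19. Those of Krt8 and Krt18 are shown because these neighbours had the smallest p-values below, and that of Krt20 because its pattern over the libraries differed from theirs. Capitals mark matches, on either strand, to any of 5 motifs. For the core that the Notch effector RBPJ recognises, the letters searched were TGGGAA. The GATA factor motif was searched as AGATAA, and the TATA box by the letters TATAAA. For the AP-1 factors of the Fos and Jun families the search used TGANTCA, while Grainyhead-like factors were represented by AACCNGTT.
Krt8, chr15:102004293-102004592, minus strand: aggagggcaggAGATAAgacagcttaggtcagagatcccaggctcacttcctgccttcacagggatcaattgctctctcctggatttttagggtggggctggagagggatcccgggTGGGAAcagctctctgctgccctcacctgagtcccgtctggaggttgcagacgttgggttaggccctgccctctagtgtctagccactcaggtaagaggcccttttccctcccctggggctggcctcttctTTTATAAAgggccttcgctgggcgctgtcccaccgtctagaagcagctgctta
Krt18, chr15:102027966-102028265, plus strand: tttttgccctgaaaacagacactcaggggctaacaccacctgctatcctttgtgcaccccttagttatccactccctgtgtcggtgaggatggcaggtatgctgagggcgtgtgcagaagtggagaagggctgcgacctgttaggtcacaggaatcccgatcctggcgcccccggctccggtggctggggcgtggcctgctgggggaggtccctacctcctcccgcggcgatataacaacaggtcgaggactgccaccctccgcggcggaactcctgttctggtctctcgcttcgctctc
Krt20, chr11:99438104-99438403, minus strand: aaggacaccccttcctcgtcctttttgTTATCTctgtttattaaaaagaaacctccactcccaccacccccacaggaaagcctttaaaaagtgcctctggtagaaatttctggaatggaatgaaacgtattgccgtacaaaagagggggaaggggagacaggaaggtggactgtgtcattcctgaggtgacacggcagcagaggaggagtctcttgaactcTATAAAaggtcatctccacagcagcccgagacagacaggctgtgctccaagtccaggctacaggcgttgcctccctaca
The Krt8 window held TGGGAA starting 134 bases upstream of the annotated start and AGATAA starting 239 bases upstream. It also held TATAAA starting 1 base upstream, which overlapped a second match on the other strand. The Krt20 window held TATAAA starting 29 bases upstream and a match to AGATAA on the other strand, 223 bases upstream. The Krt18 and Krt7 windows held none of the 5 motifs. Of 32851 RefSeq windows of 300 bases, 25.6% held the RBPJ core, 13.6% the TATA box, 11.2% the GATA motif, 7.81% the AP-1 motif and 2.09% the Grainyhead-like motif.

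Gene counts per library ranged from 12608836 to 27188499 in the knockouts and were 19384171 and 13936790 in WT 1 and WT 2. Values are given as counts-per-million (CPM) after TMM scaling, which corrects for library composition. The targeted gene Ncstn was at 114, 117 and 123 CPM in the knockouts, against 144 and 130 CPM in WT 1 and WT 2. All 3 knockouts lay below both wild types, and the difference of -0.21 ± 0.09 (SE) on the log2 scale missed the threshold (edgeR adjusted p = 0.133), and counts over the entire gene and all dissected cells do not check the deletion. Each keratin gene had from 2875 counts (Krt20) to 67790 counts (Krt7) in a library. Relative counting error was therefore largest for Krt20, and for single keratins it was not set against differences between mice. The precursor ribosomal RNA Rn45s took 0.608% to 1.53% of gene counts in the knockouts and 3.23% and 7.84% in the wild types, with the highest share in WT 1, and its part in the keratin values was not tested beyond leaving such entries out, which called none of the 5 keratins. The urothelial identity of the tissue was checked on its plaque genes, and the uroplakin gene Upk1a was at 3946 ± 138 CPM in the knockouts and 2510 ± 143 CPM in the wild types (SD, n = 3 and n = 2). Together the 5 keratins took 0.719%, 0.737% and 0.696% of gene counts in KO 1, KO 2 and KO 3, against 0.519% and 0.660% in WT 1 and WT 2. All 3 knockouts lay above both wild types in this share.

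None of the 5 keratins differed between genotypes past the test, although all 5 had positive log2 fold changes with TMM scaling, from 0.20 to 0.41, of which Krt7 and Krt20 turned negative when libraries were scaled by pan-epithelial genes. By edgeR's quasi-likelihood test, adjusted by Benjamini-Hochberg over all 14779 genes, the number called was 0 of 5 at a threshold of 0.05, while 19.7% of all tested genes were called (9.64% higher and 10.0% lower in the knockouts). At an unadjusted edgeR p under 0.05 there were 3 of the 5, namely Krt8, Krt18 and Krt19, beside 5145 of all 14779 tested genes. DESeq2 called these 3 as higher, with 18.2% of all genes called, and limma-voom called Krt8 and Krt18, with 21.1% of all genes called. The median log2 fold change of the 5 was 0.34, against 0.01 over all tested genes. The CPM ranges of knockouts and wild types were apart for Krt8, Krt18 and Krt20, which is 3 of 5, while 51.0% of all tested genes showed no overlap. In bulk tissue, fewer cells of a type and less RNA per cell cannot be told apart.

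Among the type II keratins, Krt8 was at 1205, 1291 and 1166 CPM in the knockouts KO 1 to KO 3, against 852 and 1028 CPM in WT 1 and WT 2. Every knockout library lay above both wild types, and WT 1 was the lowest of all. The log2 fold change of Krt8 was 0.38 ± 0.12 (SE) and missed the threshold narrowly (edgeR adjusted p = 0.0584). Krt7 was at 2552, 2683 and 2479 CPM in the knockouts, against 1987 and 2481 CPM in the wild types. WT 2 lay just above KO 3, so the genotypes overlapped and only WT 1 stood lower. The log2 fold change of Krt7 was 0.20 ± 0.14 (edgeR adjusted p = 0.324).

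Among the type I keratins, Krt18 was at 2086, 1955 and 1809 CPM in the knockouts KO 1 to KO 3, against 1345 and 1599 CPM in WT 1 and WT 2. The genotypes did not overlap, and the log2 fold change of 0.41 ± 0.13 was the highest of the 5 (edgeR adjusted p = 0.0557). Krt19 was at 1299, 1348 and 1101 CPM in the knockouts, against 875 and 1101 CPM in the wild types. KO 3 and WT 2 were level, and the log2 fold change was 0.34 ± 0.14 (edgeR adjusted p = 0.120). Krt20, the umbrella cell keratin, was at 217, 206 and 277 CPM in the knockouts, against 191 and 200.4 CPM in the wild types. Here KO 3 stood apart as the highest library, whereas for the other 4 keratins KO 3 was the lowest of the knockouts. The log2 fold change of Krt20 was 0.25 ± 0.13 (edgeR adjusted p = 0.197).

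**Figure D1:**
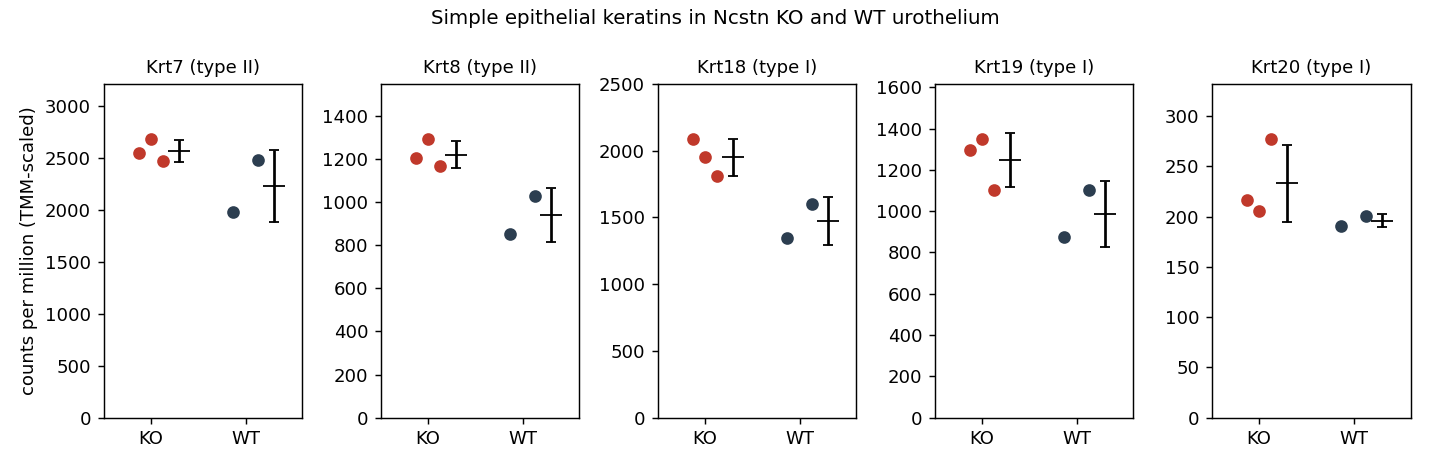
CPM (y axis, from 0, a separate scale for each gene) of the 5 keratins in 3 KO and 2 WT libraries. Points are libraries, and the black bar beside each group is its mean ± SD. No KO point lies at or below a WT point for Krt8, Krt18 and Krt20, while KO and WT points overlap for Krt7 and Krt19.

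With the edgeR test and filter used here, single libraries decided which of these keratins passed. Without KO 3, Krt8, Krt18 and Krt19 were called higher (edgeR adjusted p = 0.0468, 0.0354 and 0.0475), and Krt20 had a log2 fold change of 0.10. In that fit 27.0% of all tested genes were called (1743 higher and 2246 lower). Without KO 1, 835 of 14554 genes were higher and 912 lower, and without KO 2, 807 of 14663 were higher and 1094 lower. Counts called in the gene lists below stand beside these totals. Without WT 1, the lowest library for each of the 5 keratins, the log2 fold changes were 0.05 for Krt7, 0.24 for Krt8, 0.28 for Krt18, 0.18 for Krt19 and 0.21 for Krt20, and none was called (edgeR adjusted p from 0.290 for Krt18 to 0.886 for Krt7). The median of the 5 was then 0.21, and 4.79% of all tested genes were called. Without WT 2 the median was 0.50, Krt8 was called (edgeR adjusted p = 0.0498) and so were 9.40% of all tested genes.

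The median of the 5 keratins, 0.34, lay close to that of genes of epithelial cells in general. Of 29 tested pan-epithelial genes, which encode proteins found across epithelia such as adhesion molecules, splicing factors and protease inhibitors, 13 rose, none fell and 16 did not pass, with a median log2 fold change of 0.33. The tricellular junction gene Ildr1 rose 1.56-fold (edgeR adjusted p = 0.00183) and the tight junction scaffold gene Tjp3 rose 1.52-fold (edgeR adjusted p = 0.00308). The E-cadherin gene Cdh1 and Epcam missed the threshold at log2 fold changes of 0.13 and 0.21 (edgeR adjusted p = 0.399 and 0.195). Without KO 3, when 1743 of all 14776 genes rose, the pan-epithelial genes that rose numbered 16. Leaving out WT 1, the number that rose was 3, with Tjp3 among those lost, and it was 5 with WT 2 left out and 6 with either KO 1 or KO 2 left out.

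When libraries were scaled by these pan-epithelial genes instead of by TMM, which moved the median log2 fold change of all genes by -0.33, the keratins lay close to 0. Krt8, Krt18 and Krt19 then had log2 fold changes of 0.05, 0.08 and 0.01, and the sign turned for Krt7 (-0.12) and Krt20 (-0.07). None of the 5 was called on that scale, where 42.6% of all genes were (edgeR adjusted p = 0.736 for Krt8, 0.609 for Krt18, 0.960 for Krt19, 0.437 for Krt7 and 0.713 for Krt20). By this scaling the epithelial list itself is held level, so these values are differences relative to that list. Of all 14779 genes, 459 rose and 5841 fell on this scale, with a median of -0.32. Counts of list genes that fell on it, given below, stand beside that share. Krt5 and Krt15 had log2 fold changes of -0.01 and -0.02 on this scale. The summed CPM of the 30 listed genes ran from 6072 to 6711 in the knockouts and from 5207 to 5399 in the wild types.

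**Figure D2:**
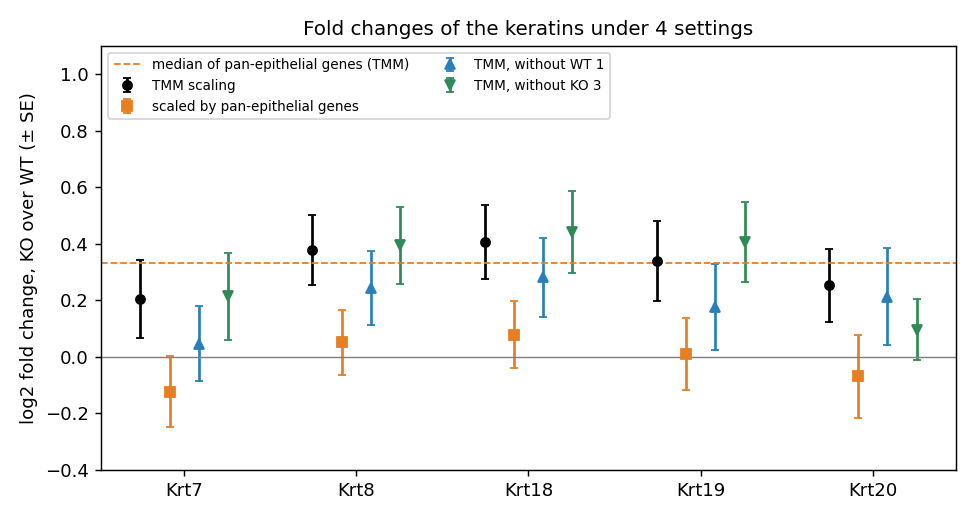
Log2 fold change, KO over WT, with its SE (y axis) for the 5 keratins (x axis) under TMM scaling, under scaling by pan-epithelial genes, and under TMM scaling without WT 1 or without KO 3. The dashed line is the median of the pan-epithelial genes under TMM scaling, 0.33; under scaling by those genes the keratins lie between -0.12 and 0.08, with Krt7 and Krt20 below 0.

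Fibroblast and endothelial markers fell in the same libraries. Of 16 fibroblast markers, 13 fell, 1 rose (Clec3b, 1.59-fold) and 2 did not pass (6 fell and none rose without WT 1), with a median log2 fold change of -0.73 and a summed CPM of 9660 to 11512 in the knockouts and 16342 to 18462 in the wild types. Lum, which encodes the matrix proteoglycan lumican, fell by 1.59 on the log2 scale, and Serpinf1 and Pi16 fell by 1.21 and 0.94. Of 12 endothelial markers 5 fell and 7 did not pass (3 fell without WT 1), with a summed CPM of 545 to 660 in the knockouts and 750 to 799 in the wild types. Kdr, Sox17 and Flt1 fell by 1.26, 1.15 and 0.69, and the Flt1 call was lost without WT 1. Scaled by pan-epithelial genes, 11 endothelial markers fell, with a median of -0.74, and 13 fibroblast markers fell and none rose, with a median of -1.06. Of all 14779 genes, 5841 fell on that scale, with a median of -0.32.

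Of 10 tested leukocyte markers, 1 rose, 2 fell and 7 did not pass (summed CPM 99.3 to 179 in the knockouts and 198 to 217 in the wild types). S100a8, on the list as a neutrophil gene, rose to 9.52 ± 6.49 CPM in the knockouts, against 0.0610 ± 0.0124 CPM in the wild types (SD, n = 3 and n = 2). Each wild-type library had 1 count of S100a8, and the cells that carried it were not tested. The dendritic cell integrin gene Itgax fell by 2.21 and the lysozyme gene Lyz2 fell by 0.82 on the log2 scale. No leukocyte marker fell when either wild type was left out, 1 fell without KO 1 and 4 fell without KO 3. Of 10 smooth muscle markers 1, Smtn, fell by 0.33 and 9 did not pass (summed CPM 318 to 468 in the knockouts and 348 to 473 in the wild types). The Smtn call was lost when any library other than KO 3 was left out, and 3 smooth muscle markers rose without KO 3. Scaled by pan-epithelial genes, 4 smooth muscle markers fell and none rose, and 4 leukocyte markers fell and 1 rose. On that scale 5841 of all 14779 genes fell. Mesothelial cells also carry simple keratins, but only 2 of 7 mesothelial markers were tested, Upk3b, which is also a urothelial gene, and Gpm6a. Upk3b rose by 0.44 and Gpm6a fell by 1.31, and both calls were lost when WT 1, WT 2 or KO 1 was left out. The Upk3b call was also lost without KO 2 and with scaling by pan-epithelial genes. The mesothelial list summed to 461 to 516 CPM in the knockouts and 347 to 369 CPM in the wild types, nearly all of it Upk3b. The part of any of these cell types in the keratin values was not tested.

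Levels were set against each other only per length, as CPM per kilobase of the principal transcript inside the RefSeq span. On that scale Krt7 was at 1621 ± 65.4 in the knockouts and 1408 ± 220.3 in the wild types, and Krt18 was at 1393 ± 98.8 and 1051 ± 128 (SD, n = 3 and n = 2). Krt19 followed at 904 ± 94.6 in the knockouts and 715 ± 116 in the wild types, and Krt8 at 676 ± 35.6 and 521 ± 68.9. Krt20 was the lowest at 121 ± 19.8 in the knockouts and 102 ± 3.37 in the wild types. The order Krt7, Krt18, Krt19, Krt8, Krt20 held in every library for these length-scaled levels, and within a genotype the values of neighbours in it did not overlap.

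The place of Krt7 in that order depends on its transcript end. GENCODE gives its principal transcript 4094 bases, of which 1586 lie inside the RefSeq span, and with the full length Krt7 averaged 628 in the knockouts and 546 in the wild types, beside 624 and 480 for Krt8 at its full length. The level of Krt8 is uncertain, since 26.9% of the 50-base windows of its transcript occur unchanged in the pseudogene Krt8-ps on another chromosome. Krt18 shared 0.720% of its windows with other genes, Krt7 0.222%, and Krt19 and Krt20 none. Exons of Krt8 and Krt7 also overlap the opposite-strand genes Gm36026 and Gm671, and with the strand setting of the counting not given, reads of these partners cannot be told apart from those of the keratins.

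The share of keratin mRNA held by the 5 genes did not separate the genotypes. Of the summed length-scaled CPM of 20 tested keratins, they held 66.0%, 62.2% and 74.3% in KO 1, KO 2 and KO 3, against 67.0% and 66.0% in WT 1 and WT 2. KO 3 was the highest and KO 2 the lowest, with both wild types between them. Krt20 alone held 1.54%, 1.36% and 2.40% in the knockouts, against 1.94% and 1.64% in the wild types.

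Type I and type II chains were then paired within each library, as a log2 ratio of length-scaled CPM, a quantity that does not depend on scaling between libraries. Krt18 over Krt8, the classical pair, was at 2.23, 1.95 and 2.00 on the linear scale in KO 1, KO 2 and KO 3, against 2.04 and 2.01 in WT 1 and WT 2. The wild types lay inside the range of the knockouts, and the difference was 0.03 on the log2 scale (exact 2-sided permutation p = 1). Krt19 over Krt8 was at 1.41, 1.36 and 1.23 in the knockouts, against 1.34 and 1.40 in the wild types, a log2 difference of -0.04 (exact permutation p = 1). These ratios to Krt8 therefore differed between genotypes by less than they did among the knockouts.

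The ratios of Krt18 and Krt19 to Krt7 lay higher in every knockout than in either wild type, by a margin beyond 3 digits only for Krt18. Krt18 over Krt7 was at 0.926, 0.825 and 0.827 in KO 1, KO 2 and KO 3, against 0.767 and 0.730 in WT 1 and WT 2, a log2 difference of 0.20 with no overlap. Krt19 over Krt7 was at 0.584, 0.577 and 0.510 in the knockouts, against 0.506 and 0.510 in the wild types, a log2 difference of 0.13 in which KO 3 was level with WT 2 to 3 digits. With 3 mice against 2 the smallest p an exact 2-sided permutation test can give is 0.2, which both ratios reached (adjusted p = 0.533 over 8 ratios), so the design could not call them.

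Krt20 over Krt8 was at 0.169, 0.150 and 0.223 in the knockouts, against 0.210 and 0.183 in the wild types, and Krt20 over Krt7 at 0.0700, 0.0632 and 0.0920, against 0.0792 and 0.0665. KO 3 had the highest value of both and KO 2 the lowest, with the wild types between (log2 differences of -0.14 and 0.03, exact permutation p = 0.6 and 1). The sum of Krt18, Krt19 and Krt20 over that of Krt7 and Krt8 was at 1.12, 1.03 and 1.01 in the knockouts, against 0.982 and 0.958 in the wild types, a log2 difference of 0.12 with no overlap (exact permutation p = 0.2). Over all 10 type I and 10 type II keratins tested, the ratio was at 1.24, 1.28 and 1.05, against 1.08 and 1.09, and KO 3 lay below both wild types (log2 difference 0.13, exact permutation p = 0.6). The closeness of the summed ratio to 1 rests on the length of Krt7. With the full transcript lengths the mean log2 ratio of these sums was 0.86 in the knockouts and 0.78 in the wild types, while differences between genotypes in ratios of single genes do not depend on length.

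**Figure D3:**
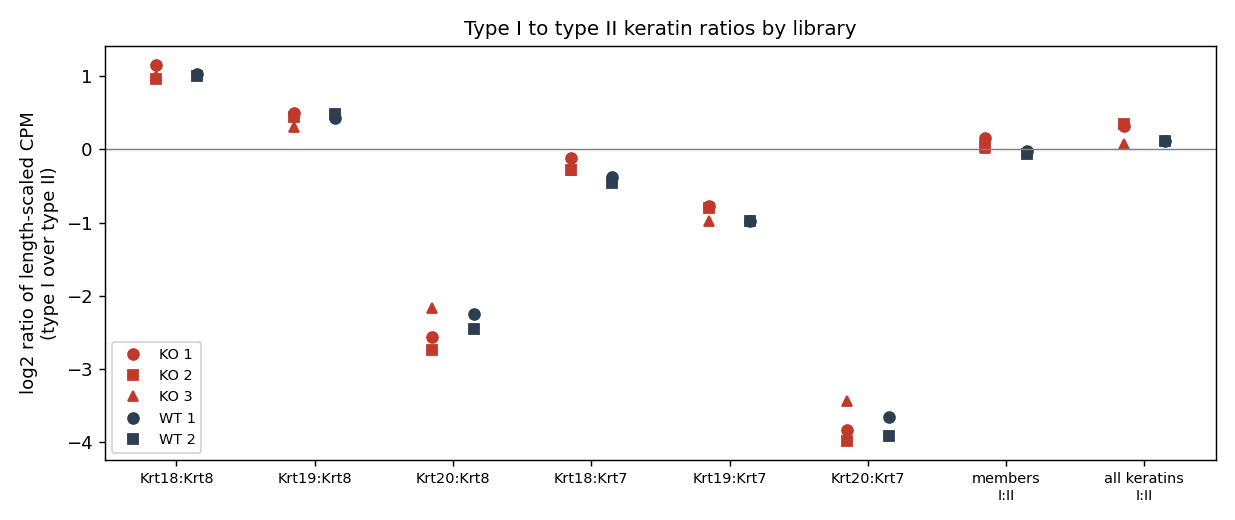
Log2 ratio of length-scaled CPM, type I over type II (y axis), for 6 keratin pairs, the summed 5 keratins (members) and all 20 tested keratins, with 1 point per library, KO left of WT. Krt18:Krt8 is near 1 in every library, Krt18:Krt7 is higher in all 3 KO libraries, and KO 3 is the highest for both Krt20 ratios.

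Over the 5 libraries Krt20 followed a course of its own. Likeness was measured as the root mean square difference between log2 CPM values centred on each gene's mean. Krt7, Krt8, Krt18 and Krt19 lay 0.07 to 0.12 from each other, the closest being Krt8 and Krt18 at 0.066, while Krt20 lay 0.19 to 0.26 from each of them. In KO 3 Krt20 was 0.36 above its mean, and Krt5 and Krt15, which are keratins of basal cells, were 0.20 and 0.58 below theirs. Other markers of these layers went both ways in KO 3. Among umbrella cell markers, Upk2 and Upk3a were the lowest of the knockouts there and Vsig2 the highest. Among basal cell markers, Trp63 and Cd44 were the highest of the knockouts there and Itgb4 and Krt14 the lowest. These 5 points come from libraries that also differ in depth, and no test was made of this description.

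By the same measure, among 10244 genes with a mean of at least 10 CPM, the genes nearest to Krt8 were Pfkp, which encodes a phosphofructokinase (0.0032), and Gfod2 (0.020). Nearest to Krt18 were Sdcbp2, which encodes the adaptor syntenin-2 (0.012), and the DNA polymerase gene Polb (0.016), and nearest to Krt19 were the elongation factor gene Elof1 (0.020) and the glycolytic gene Tpi1 (0.024). Nearest to Krt7 were Atp5g2, a subunit of mitochondrial ATP synthase (0.013), and Fam58b (0.017), and nearest to Krt20 were Rsph3a (0.030) and Pgm3, which encodes an enzyme of amino sugar synthesis (0.032).

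**Figure D4:**
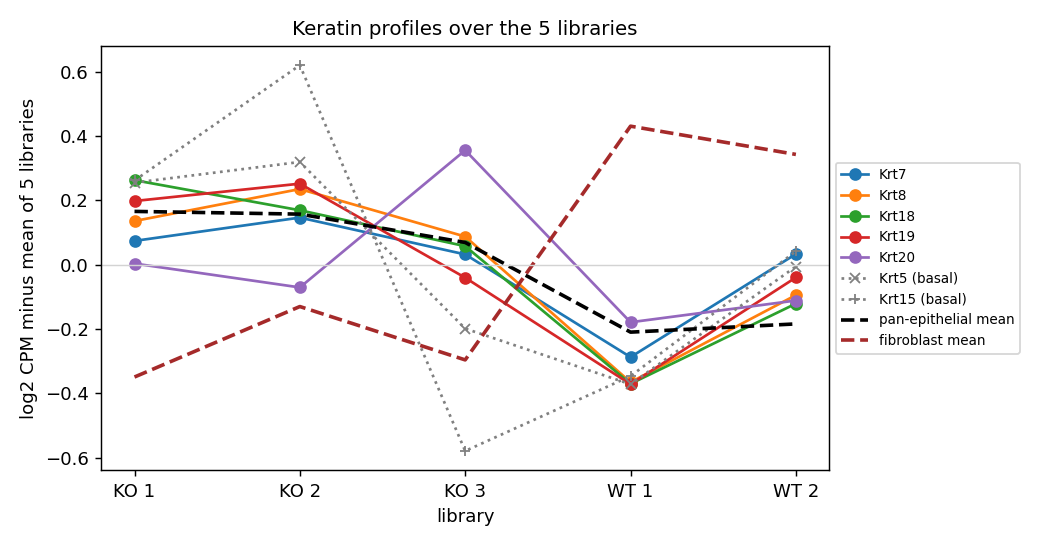
Log2 CPM minus the mean of the 5 libraries (y axis) for the 5 keratins, the basal keratins Krt5 and Krt15, and the means of the pan-epithelial and fibroblast lists, in each library (x axis). Lines only join points of a gene or list, since replicates have no order. Krt20 peaks in KO 3, 0.36 above its mean. Krt15 is 0.58 below its mean there, while other umbrella and basal cell markers, not drawn, go both ways in KO 3.

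Among the other 15 tested keratins, 1 rose, 1 fell and 13 did not pass, with a median log2 fold change of -0.09. The 35 remaining keratin symbols were too low to test, with at most 0.679 CPM in any library. Krt14, a basal type I keratin, rose to 86.3, 117 and 31.2 CPM in the knockouts KO 1 to KO 3, against 1.78 and 3.14 CPM in WT 1 and WT 2 (edgeR adjusted p = 0.000469), and even so stayed below every member of the simple keratin group per length, at 47.2 ± 26.3 CPM per kilobase in the knockouts. Krt4, a type II keratin of stratified internal epithelia, fell to 109, 150 and 45.6 CPM in the knockouts, against 263 and 267 CPM in the wild types (edgeR adjusted p = 0.0191). That call was lost in DESeq2 (adjusted p = 0.0984), in a robust fit (0.194), without WT 1 (0.123) and without WT 2 (0.0925).

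The basal keratins Krt5 and Krt15 were the only other keratins above Krt20 per length in both genotypes. Krt4 was at 124 ± 1.25 CPM per kilobase in the wild types, above Krt20 there. In the knockouts Krt4 was at 47.6 ± 24.7 CPM per kilobase, below Krt20. Krt5, the type II keratin whose promoter drives the Cre, was at 2012, 2104 and 1469 CPM in the knockouts, against 1303 and 1679 CPM in the wild types (log2 fold change 0.32 ± 0.18, edgeR adjusted p = 0.226). Krt15 was at 2438, 3126 and 1361 CPM in the knockouts, against 1600 and 2094 CPM in the wild types (0.32 ± 0.28, edgeR adjusted p = 0.449). KO 3 was the lowest knockout for both, and without it both were called higher (edgeR adjusted p = 0.0414 and 0.0236). Krt78, Krt23, Krt10 and Krt80 were near 10 CPM and did not pass, with log2 fold changes of 0.00, -0.43, -0.09 and 0.29. Only Krt23 of these passed when scaled by pan-epithelial genes (-0.77, edgeR adjusted p = 0.0122).

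Genes marking the layers around these keratins were set beside them. Of 11 umbrella cell markers other than Krt20, 6 rose and 5 did not pass, with a median log2 fold change of 0.58 and a summed CPM of 19406 to 21528 in the knockouts and 13664 to 14430 in the wild types. Upk2, Snx31 and Upk1a rose 1.83-fold, 1.66-fold and 1.57-fold, and the members that rose numbered 2 without WT 1, 3 without KO 2 and 8 without KO 3 as against 6 with all libraries. The Upk1a call was lost without WT 1. Krt20 had a log2 fold change of 0.25 beside these values, and the difference between it and the uroplakins was not tested. Scaled by pan-epithelial genes, 3 umbrella cell markers rose and none fell, with a median of 0.24. Of 12 basal cell markers, 3 rose, 3 fell and 6 did not pass, with a median of 0.20. Krt14, Cdh3 and Ngfr rose, and the laminin gene Lamb3, the integrin gene Itga6 and Cd44 fell. The Ngfr call was lost when either wild type was left out, at log2 fold changes of 1.55 without WT 1 and 1.67 without WT 2. The summed CPM of the basal list was 3240 to 4237 in the knockouts and 3421 to 3540 in the wild types. Scaled by pan-epithelial genes, 3 rose and 4 fell, with a median of -0.13, beside 459 that rose and 5841 that fell among all 14779 genes. The basal markers that rose numbered 6 without KO 3, when 1743 of all 14776 genes rose. None fell without KO 1 and 1 fell without KO 2, when 912 and 1094 of all tested genes fell. Lamb3, Itga6 and Cd44 had log2 fold changes of -0.41, -0.25 and -0.31 without WT 1.

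Keratin filaments are anchored to desmosomes by linker proteins and bound by chaperones and signalling partners. Of 25 tested linkers and partners of keratins, 7 rose, 2 fell and 16 did not pass, with a median log2 fold change of 0.21. Sfn, which encodes the epithelial 14-3-3 protein sigma, rose 1.68-fold (edgeR adjusted p = 0.00149), and Evpl and Jup, which encode envoplakin and plakoglobin of the desmosome, rose 1.55-fold and 1.42-fold. The members that fell were Eppk1, which encodes the keratin-binding protein epiplakin (-0.85, edgeR adjusted p = 0.00882), and the desmosomal plakophilin gene Pkp1 (-0.57, edgeR adjusted p = 0.0228). The cytolinker genes Dsp and Plec, for desmoplakin and plectin, were not called, with log2 fold changes of -0.05 and 0.05. Scaled by pan-epithelial genes, 2 genes of this list rose and 9 fell, with a median of -0.12. Of all 14779 genes, 459 rose and 5841 fell on that scale, with a median of -0.32. Krtcap2 and Krtcap3 are on the list by name only, as keratinocyte-associated genes. Leaving out KO 1 or KO 2, the number of this list that rose was 3, and it was 11 without KO 3, when 1743 of all 14776 genes rose. The list median was 0.18 without WT 1 and 0.28 without WT 2. Without WT 1 none fell, and 1 fell when WT 2 or KO 1 was left out. The Jup call was lost without WT 2 and with scaling by pan-epithelial genes.

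Of 25 tested transcription factors with a known or proposed part in simple keratin expression, 10 rose, 1 fell and 14 did not pass, with a median log2 fold change of 0.23. The barrier factor gene Grhl3 rose 2.13-fold (edgeR adjusted p = 0.000125), Ets2 rose 1.66-fold and Klf4 rose 1.88-fold, while Ets1 fell by 0.45 on the log2 scale. Rbpj, the DNA-binding partner of the Notch signal, missed the threshold at -0.13 on the log2 scale (edgeR adjusted p = 0.441). With WT 1 left out 6 rose and none fell, and with WT 2 left out 6 rose and 2 fell. Without KO 3, 12 rose and 2 fell, when 1743 of all 14776 genes rose and 2246 fell. Scaled by pan-epithelial genes, a list that shares Elf3, Grhl1 and Grhl2 with this one, 5 rose and 6 fell, with a median of -0.10. Of all 14779 genes, 459 rose and 5841 fell on that scale, with a median of -0.32. Of 12 tested intermediate filament genes other than keratins, 3 fell, 1 rose and 8 did not pass. The mesenchymal filament gene Vim fell to 331 ± 23.9 CPM in the knockouts, against 553 ± 8.27 CPM in the wild types (SD, n = 3 and n = 2; edgeR adjusted p = 0.00126), Nes fell by 0.89 and Sync fell by 1.94 on the log2 scale, and the neuronal filament gene Prph rose 2.00-fold. The lamin gene Lmna missed the threshold at 0.29 on the log2 scale (edgeR adjusted p = 0.0690). With WT 1 or WT 2 left out, 1 fell and none rose, and Prph was not called without KO 1 either. Prph was also lost when scaled by pan-epithelial genes, where 4 fell and none rose, beside 5841 of all 14779 genes that fell.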

How the data were processed

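RNA was sequenced from dissected mouse urothelium. Per the labels' protocols, RNA from the pulverised tissue was extracted with TRI-Reagent and made into TruSeq libraries. The tools named in the submitters' processing notes are HISAT2 2.1.0, HTSeq 0.11.1 and DESeq2, with build mm10. Neither annotation nor strand setting is given in the sources used here. The deposited values were raw counts per gene, and the 5 summary entries of the counting program were left out. Genes held 49.3% to 60.6% of tallied reads, and 22.3% to 25.8% aligned to more than 1 place.

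The filterByExpr rule (minimum count 10, total 15) chose the genes tested, and libraries were scaled with TMM and tested with the edgeR quasi-likelihood test (edgeR 4.0.16, R 4.3.3, limma 3.58.1, DESeq2 1.42.0) with Benjamini-Hochberg adjustment at 0.05. The standard error is the log2 fold change divided by the root of F. The design text describes separate mice. Replicates differed by 9.26 to 36.3 times counting error (chi-square per degree of freedom), the highest value being that of WT 1 and WT 2. These values include the Rn45s entry, which took 7.84% of gene counts in WT 1 and 3.23% in WT 2. Positions come from GENCODE vM21. Members and lists were chosen with earlier results of these data known. All 5 keratins were named, other keratins if called or above 10 CPM, of each list up to 3 called genes with the smallest p, and the 2 genes nearest to each keratin. One gene that this rule names is not reported here. Other genes named were chosen after their values were seen. The alternatives were other scalings, filters, fits and tests, a replicate block, and leaving out each library. Ratios with full transcript lengths were added after the data were seen.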

Additional observations from a re-analysis of the deposited data

How the results depend on the processing

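In all 14 settings other than scaling by pan-epithelial genes, the log2 fold changes of the 5 keratins were above 0 (70 of 70 values, from 0.05 to 0.52). These settings refit the same libraries, so the 70 values are not independent, and the robust fit gives the same log2 fold changes as the main fit. Under scaling by pan-epithelial genes, Krt7 (-0.12) and Krt20 (-0.070) reversed, the median of the 5 was 0.0086 and 6300 genes changed (459 higher and 5841 lower in the knockouts), against 2907 with TMM scaling (1424 higher and 1483 lower). Keratins called numbered 3 without a low-count filter (Krt8 0.38, Krt18 0.41, Krt19 0.34), where 3859 of 19985 genes changed. A robust fit called 1 (Krt18 0.41), with 2972 of 14779 genes changed. DESeq2 called 3 (Krt8 0.38, Krt18 0.41, Krt19 0.34), with 2808 of 15396 genes changed. For limma-voom the number was 2 (Krt8 0.38, Krt18 0.40), with 3120 of 14779 genes changed. It was 0 with TMM scaling and with the other scalings and filters. With the replicate number as a block, 3 keratins were called (Krt8 0.42, Krt18 0.46, Krt19 0.43) and 4637 of 14779 genes changed. KO 3 is alone in its block and adds nothing to that contrast, and same-numbered libraries did not deviate together (correlations of -0.055 and 0.052), so the numbers were not taken to pair the mice.

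With 1 wild type left, that library was assumed to vary like the knockouts. Leaving out each library in turn, log2 fold changes ran from 0.05 to 0.36 for Krt7, 0.24 to 0.50 for Krt8, 0.28 to 0.52 for Krt18, 0.18 to 0.50 for Krt19 and 0.10 to 0.32 for Krt20. Their median ran from 0.21 to 0.50, keratins called from 0 to 3 and changed genes from 715 to 3989. Log2 ratio differences ran from -0.032 to 0.064 for Krt18 over Krt8, -0.080 to 0.015 for Krt19 over Krt8 and -0.13 to 0.16 for Krt20 over Krt7, each changing sign. Krt20 over Krt8 (-0.30 to -0.02), Krt18 over Krt7 (0.14 to 0.23), Krt19 over Krt7 (0.10 to 0.19), the summed 5 keratins (0.07 to 0.15) and all keratins (0.08 to 0.22) kept theirs. The causes were not tested. With 3 mice against 2, whether Krt8, Krt18 and Krt19 pass rests on single libraries, and on the test and low-count filter used.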
